A study of Arabidopsis thaliana with 15 samples.

Results

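The 10 genes described here encode enzymes that make the plant hormone jasmonate in Arabidopsis thaliana. They were chosen by locus along the pathway, from the lipoxygenases LOX3 and LOX4 to the conjugating enzyme JAR1, and all 10 were among the 14391 genes of the count table. The first enzymes work in the plastid. Lipoxygenases add oxygen to linolenic acid, allene oxide synthase (AOS) turns the product into an unstable epoxide, and allene oxide cyclases (AOC) close its ring to give 12-oxophytodienoic acid (OPDA). OPDA moves to the peroxisome, where OPDA reductase (OPR3) and rounds of β-oxidation that begin with acyl-CoA oxidase (ACX1) shorten it to jasmonic acid. In the cytosol JAR1 joins jasmonic acid to isoleucine, and the conjugate brings the receptor COI1 together with JAZ repressors, which are then degraded and release MYC transcription factors. Jasmonate is best known as a hormone of wounding, of defence and of inhibited root growth.

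RNA was measured in roots of wild-type Columbia-0 seedlings 7 days old, with 3 libraries in each of 5 groups, each from 30 to 50 pooled seedlings. In RBH 2 h, the solution held 5 mM H2O2 together with what the label writes as 10 µM MRB, an abbreviation that no source used here spells out. RB 1 h, RB 2 h and RB 3 h were 10 µM Rose Bengal, a dye that generates singlet oxygen when lit, for 1, 2 and 3 h. Water was labelled as 1 h in water, although the titles of those libraries carry a 0. Thus only RB 1 h had a water group of the same labelled time, and at 2 and 3 h treatment and time in solution changed together. RBH 2 h and RB 2 h share their time. All groups share genotype, medium and a 16-h day at 21 °C, the sources used here do not state the light during treatment, and roots in H2O2 alone were not analysed here.

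The largest differences lay in the allene oxide cyclase step under RBH. AOC2 and AOC1, nearly silent in water and under Rose Bengal alone, reached 92.4 ± 17.7 and 47.4 ± 5.95 CPM in RBH 2 h (mean ± SD, n = 3), where CPM is the usual unit of a count relative to the TMM-scaled total of its library. In RB 2 h they stood at 4.39 ± 3.36 CPM for AOC2 and 2.94 ± 1.05 CPM for AOC1, and in water at 1.45 ± 1.43 and 0.95 ± 1.65 CPM. AOC3 and LOX4 also rose under RBH against both groups, and AOS against water. The last enzymes, OPR3, ACX1 and JAR1, passed the test in none of 6 comparisons in the fit of all 15 libraries. Leaving out libraries brought calls of ACX1 and JAR1, given with those genes below. Under Rose Bengal alone, AOC4 fell against water at all 3 times, and LOX4 and AOS rose by 3 h. In bulk roots, fewer cells of a type and less RNA per cell cannot be told apart.

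Of the 9 genes that could be tested (the tenth, LOX3, had too few counts), RBH 2 h against RB 2 h called 4 higher (LOX4, AOC1, AOC2 and AOC3) and 0 lower, where 9.82% of all 9891 tested genes were called higher and 6.97% lower (16.8% in all). RBH 2 h against water called 5 higher (the same 4 and AOS) and 0 lower, where 14.4% of all were higher and 12.6% lower (27% in all). Under Rose Bengal against water, only AOC4 was called at 1 h, lower (3.07% of all higher, 2.32% lower, 5.39% in all), and at 2 h, lower (12.6%, 12.2% and 24.8%). At 3 h, LOX4 and AOS were called higher and AOC4 lower (16.2%, 16.6% and 32.7%). RB 3 h against RB 1 h called AOS and AOC3 higher and 0 lower (9.4%, 8.34% and 17.7%). For the Rose Bengal times these counts, out of 9 genes, lie too near the shares of all genes to be read as a result about the pathway. Both RBH counts include AOC1 and AOC2, which passed the filter on low counts through their RBH libraries (AOC2 with 1 other library). Their calls thus partly follow from that filter, and the RBH counts are not read as a result about the pathway either. The comparisons against water share the 3 water libraries, and RB 2 h and RB 3 h also enter other comparisons.

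Counted by library, 5 of the 9 genes had every RBH 2 h value above every RB 2 h value and 0 the reverse (16.4% and 12.1% of all tested genes). Against water, RBH 2 h had 6 such genes above and 1, AOC4, below (22.3% and 20.6%), and RB 3 h had 7 above and 1 below (25.4% and 25.5%). RB 2 h had 0 above and 1 below (18.3% and 19.1%), and RB 1 h had 1, JAR1, above and 1 below (11.6% and 12.4%). RB 3 h had 5 above RB 1 h and 0 below (17.4% and 16.9%). Both RBH counts of genes above include AOC1 and AOC2, which passed the filter on low counts through RBH (AOC2 with 1 other library). Their separation thus partly follows from that filter.

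RB 1 h replicate b and RB 2 h replicate a stood apart from their groups: on the third principal component of log2 CPM (7.4% of the variance) they scored 30.23 and 46.83, and the other 13 libraries -18.97 to 12.09. Without both, RBH 2 h against RB 2 h kept its 4 calls, at log2 fold changes of 2.05 for LOX4, 4.26 for AOC1, 5.12 for AOC2 and 1.38 for AOC3. RBH 2 h against water then called 6, with AOC4 lower by 0.45 (edgeR adjusted p = 0.024). AOC4 without them fell against water by 1.13, 0.79 and 0.78 after 1, 2 and 3 h of Rose Bengal (edgeR adjusted p = 0.000196, 0.00125 and 0.000287).

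Library totals ran from 897728 to 6230975 counts, so that 1 count was worth 0.176 to 1.19 CPM. Of the 10 genes, 9 passed the filter on low counts and entered edgeR's quasi-likelihood test with 9891 genes. LOX3, with 82 counts over 15 libraries, did not pass it. AOC1 passed through the 3 RBH libraries alone and AOC2 through those and 1 other library, so their presence among the tested genes already depends on their RBH level. Calls were made where the p, adjusted by Benjamini-Hochberg across those genes, was below 0.05. Of 9 markers of root hair, epidermis, endodermis and vascular tissue, at most 2 were at 0 in a library. Of 11 markers of green shoot tissue, at most 3 were at 0, so the root libraries hold some of their RNA. The summed level of the 9 root markers was 1054 to 1397 CPM under RBH, 1463 to 1885 CPM after 1 h of Rose Bengal, 857 to 967 CPM after 2 h, 675 to 790 CPM after 3 h and 2907 to 3065 CPM in water. The 9 markers did not move alike. In RBH 2 h against water 5 fell and 1 rose (12.6% and 14.4% of all tested genes), and the sum was carried by PHT1;1, a phosphate transporter, at 220 CPM in RBH 2 h and 1213 CPM in water, and TIP2;3, an aquaporin, at 198 CPM in RBH 2 h and 849 CPM in water. XCP2, a xylem protease, rose to 325 CPM in RBH 2 h, against 220 CPM in water, and SCR, APL and CASP1 did not pass. The summed level of the shoot markers was 308 to 814 CPM under RBH, 206 to 267 CPM after 1 h of Rose Bengal, 260 to 474 CPM after 2 h, 175 to 211 CPM after 3 h and 304 to 521 CPM in water. The part of the root markers in the differences below was not tested, and that of the shoot markers was examined only by a fit with their level as a covariate.

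AOC1, AOC2 and AOC3 are direct neighbours on chromosome 3, all on the plus strand, and AOC4 lies on chromosome 1. The genes span chr3:9403779-9405338 for AOC1, chr3:9406669-9408071 for AOC2 and chr3:9409160-9411090 for AOC3 in TAIR10.1, whose sequence and annotation were used here because the sources used here do not name the build of the counts. The 250 bases before the annotated start are shown for the 4 genes that were called higher in RBH 2 h against RB 2 h. They share that call, but their folds in it ran from 2.31 for AOC3 to 24.4 for AOC2. The windows are chr1:27308263-27308512 for LOX4, chr3:9403529-9403778 for AOC1, chr3:9406419-9406668 for AOC2 and chr3:9408910-9409159 for AOC3, each read on the plus strand. Capitals mark the motifs found, AACGTG (on the minus strand it reads CACGTT) and, in LOX4, TGACG.
LOX4: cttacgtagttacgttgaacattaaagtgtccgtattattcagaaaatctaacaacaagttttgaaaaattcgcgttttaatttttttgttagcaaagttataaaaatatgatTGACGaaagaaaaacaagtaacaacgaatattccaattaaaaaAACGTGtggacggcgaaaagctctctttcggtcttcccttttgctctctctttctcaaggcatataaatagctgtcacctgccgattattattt
AOC1: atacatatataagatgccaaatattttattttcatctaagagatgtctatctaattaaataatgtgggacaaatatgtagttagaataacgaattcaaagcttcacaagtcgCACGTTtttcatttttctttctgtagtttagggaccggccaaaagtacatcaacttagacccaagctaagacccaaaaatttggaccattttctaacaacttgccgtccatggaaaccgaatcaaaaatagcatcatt
AOC2: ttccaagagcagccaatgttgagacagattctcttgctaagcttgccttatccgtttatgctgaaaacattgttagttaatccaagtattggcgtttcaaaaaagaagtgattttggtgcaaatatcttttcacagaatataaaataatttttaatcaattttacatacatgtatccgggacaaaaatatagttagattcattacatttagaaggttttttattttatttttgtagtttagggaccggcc
AOC3: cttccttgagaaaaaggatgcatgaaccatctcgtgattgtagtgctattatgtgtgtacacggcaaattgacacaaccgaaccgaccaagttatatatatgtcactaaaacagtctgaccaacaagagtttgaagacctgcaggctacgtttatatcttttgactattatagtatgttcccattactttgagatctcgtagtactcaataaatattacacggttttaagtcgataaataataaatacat
Searched on both strands from 250 bases before to 50 after the gene start, AACGTG, a relative of the G-box that MYC factors are known to bind, stood in 4 of the 10 windows. In LOX4 it began 94 bases before the start and in AOC1 138 before. In LOX3 and AOC2 it lay after the start, by 18 and 40 bases. Of 27443 such windows of protein-coding genes, 8.95% hold it. The palindromic G-box CACGTG was found in the AOS and ACX1 windows (7.68% of all windows), TGACG in LOX4 alone (23.1%), and TTGACC in none (14.2%); none of these motifs overlaps another in the 10 windows.

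Among the 45 pairs of windows, the longest run of identical bases was 26, shared by AOC1 and AOC2, the neighbours that moved most. It begins 117 bases before the start of AOC1 and 19 before that of AOC2. The next longest, of 16 bases, joined LOX3 and LOX4 and holds their AACGTG, and the median over the pairs was 9.
AOC1 and AOC2 shared run: tgtagtttagggaccggccaaaagta
LOX3 and LOX4 shared run: aaaacgtgtggacggc
The coding sequences of AOC1 and AOC2 are 90.3% identical, and the other AOC pairs 74.9% to 83.2%. MARS-seq reads lie near the 3′ end. Over the last 500 bases of the transcripts, none of the 451 stretches of 50 bases of AOC1 occurs in another AOC transcript, and 1 of the 451 of AOC2 occurs in AOC3. The 4 genes, and LOX3 with LOX4, can therefore be told apart by most reads of that length there, although the sources used here do not state the settings of the counting.

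**Figure D1:**
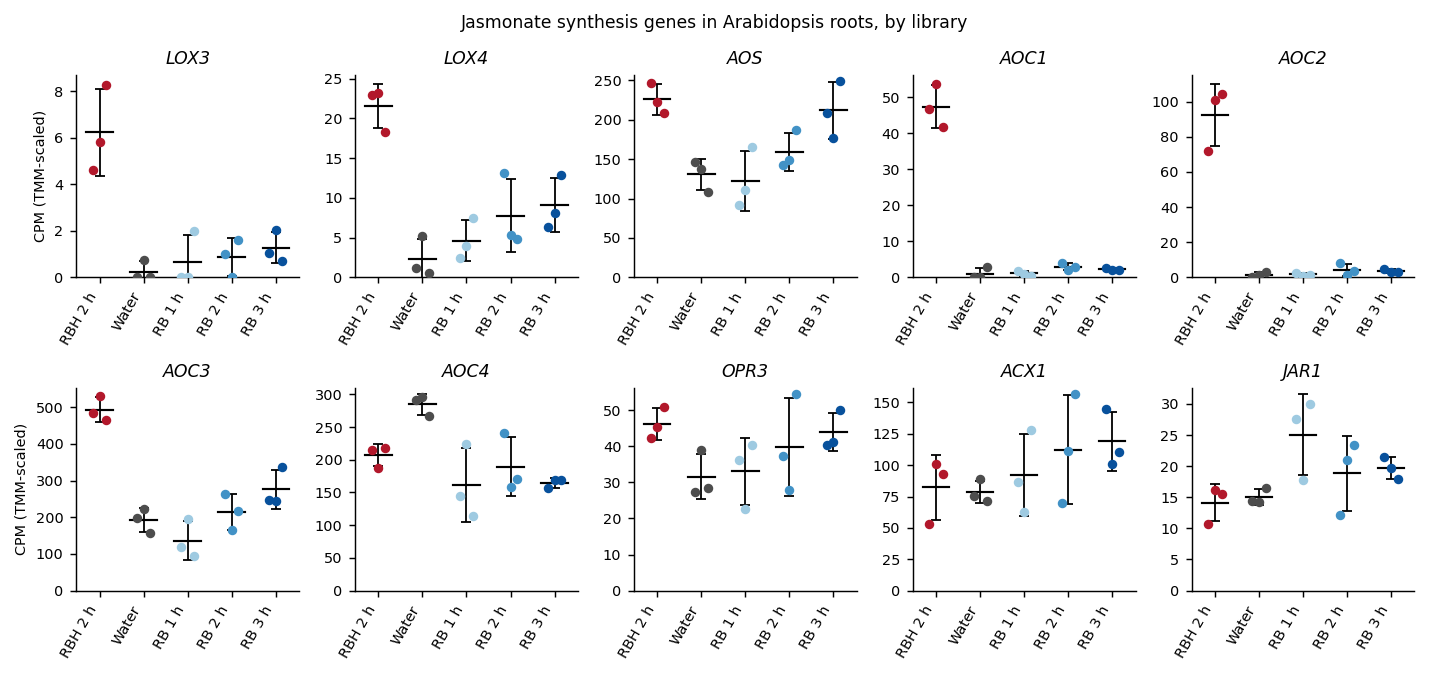
CPM of the 10 genes (y axis, linear from 0, own scale per gene) in the 5 groups (x axis); points are libraries, bars the mean ± SD of 3. AOC1 and AOC2 are high in the 3 RBH libraries only, while OPR3, ACX1 and JAR1 overlap between RBH 2 h and RB 2 h.

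At the lipoxygenase step, LOX4 (AT1G72520) had 23.0, 23.3 and 18.3 CPM in RBH 2 h. Under Rose Bengal it had 2.4, 3.94 and 7.48 CPM at 1 h, 13.1, 5.36 and 4.85 CPM at 2 h and 6.39, 8.06 and 12.9 CPM at 3 h, and in water 1.19, 5.23 and 0.570 CPM. Every RBH library thus lay above every other library. LOX4 rose in RBH 2 h against RB 2 h, by 1.59 on the log2 scale (SE 0.45, edgeR adjusted p = 0.0169), and against water by 3.17 (SE 0.57, adjusted p = 0.000141). It also rose in RB 3 h against water, by 1.87 (SE 0.62, edgeR adjusted p = 0.0224), a call lost in 3 of the 6 fits that left out a library. In those 6 fits the log2 fold change ran from 1.26 without water replicate c (adjusted p = 0.163) to 3.40 without water replicate b. The call against RB 2 h was lost without RB 2 h replicate b (adjusted p = 0.0854), without RB 2 h replicate c (adjusted p = 0.112) or without RBH replicate b (adjusted p = 0.0571). Of the 9 water counts, 7 came from replicate b, and without it the log2 fold change of RBH 2 h against water was 4.66.

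LOX3 (AT1G17420), the close relative of LOX4, had 4.60, 5.81 and 8.28 CPM in RBH 2 h and 1.01, 0 and 1.62 CPM in RB 2 h. It had 0, 0 and 2.00 CPM after 1 h of Rose Bengal, 1.07, 2.02 and 0.716 CPM after 3 h, and 0, 0.747 and 0 CPM in water. All RBH libraries lay above all others here too, but the counts are few: 62 under RBH, 4, 5 and 10 after 1, 2 and 3 h of Rose Bengal, and 1 in water. The ratio of depth-scaled counts of RBH 2 h to RB 2 h was 8.02, with a 95% exact binomial interval of 3.26 to 25.6 that covers counting error only. To water it was 28.6 (4.94 to 1147). When all 14391 genes were kept, LOX3 rose in RBH 2 h against RB 2 h (log2 fold change 2.80, edgeR adjusted p = 0.0125) and against water (4.43, adjusted p = 0.0017).

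AOS (AT5G42650), the only allene oxide synthase gene of Arabidopsis, had 247, 222 and 209 CPM in RBH 2 h. In the Rose Bengal series it had 91.3, 110.3 and 165 CPM at 1 h, 142, 149 and 187 CPM at 2 h and 209, 177 and 249 CPM at 3 h, and in water 147, 137 and 109 CPM. The RBH and RB 3 h libraries lay above all water libraries. AOS rose against water in RBH 2 h, by 0.79 on the log2 scale (SE 0.21, edgeR adjusted p = 0.00629), and in RB 3 h, by 0.70 (SE 0.21, adjusted p = 0.0129). Between RBH 2 h and RB 2 h the libraries did not overlap either, but the log2 difference of 0.50 missed the threshold (SE 0.21, edgeR adjusted p = 0.105). Without water replicate c, the call was lost for RBH 2 h (0.67, edgeR adjusted p = 0.0506) and for RB 3 h (adjusted p = 0.0846), and the RB 3 h call was also lost without RB 3 h replicate c (adjusted p = 0.0673).

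At the cyclase step, AOC2 (AT3G25770) had 72.1, 101 and 104 CPM in RBH 2 h, against 8.06, 1.46 and 3.64 CPM in RB 2 h. After 1 h of Rose Bengal it had 2.4, 0.985 and 1.5 CPM, after 3 h 4.90, 3.02 and 2.87 CPM, and in water 0, 1.49 and 2.85 CPM. The lowest RBH library was thus several times higher than the highest of the other 12. AOC2 rose in RBH 2 h against RB 2 h, by 4.61 on the log2 scale, which is 24.4-fold (SE 0.38, edgeR adjusted p = 1.97e-08). By log2 fold change it ranked 10 of 9891 genes. AOC2 passed the filter on low counts through RBH and 1 other library, so this rank is no added support. Against water the log2 fold change was 5.68 (SE 0.45, edgeR adjusted p = 8.16e-10), and 6.59 without water replicate c. The RBH counts, 842 over 3 libraries, are well measured, while the 20 counts in RB 2 h and 7 in water set the precision of the fold.

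AOC1 (AT3G25760) had 46.8, 53.6 and 41.7 CPM in RBH 2 h, against 4.03, 1.95 and 2.83 CPM in RB 2 h. After 1 h of Rose Bengal it had 1.80, 0.985 and 0.499 CPM, after 3 h 2.56, 2.02 and 2.15 CPM, and in water 0, 0 and 2.85 CPM. The separation was as complete as for AOC2. AOC1 rose in RBH 2 h against RB 2 h, by 4.07 on the log2 scale or 16.8-fold (SE 0.42, edgeR adjusted p = 5.77e-07), rank 17 of 9891. Because AOC1 passed the filter on low counts through the RBH libraries alone, its rank is no added support. AOC1 rose by 5.18 against water (SE 0.51, edgeR adjusted p = 2.72e-08). All 5 water counts of AOC1 came from replicate c, so this fold rests on that library. Without it the water group is at 0 and the fitted 9.69 depends on the prior count.

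AOC3 (AT3G25780) had 484, 530 and 465 CPM in RBH 2 h. Under Rose Bengal it had 119, 196 and 93.3 CPM at 1 h, 262, 165 and 216 CPM at 2 h and 247, 243 and 338 CPM at 3 h, and in water 198, 222 and 158 CPM. Unlike AOC1 and AOC2, it was well above the counting floor in every library. AOC3 rose in RBH 2 h against RB 2 h, by 1.21 on the log2 scale or 2.31-fold (SE 0.23, edgeR adjusted p = 0.000822), and against water by 1.36 (SE 0.23, adjusted p = 8.83e-05). It also rose in RB 3 h against RB 1 h, by 1.04 (SE 0.23, adjusted p = 0.00278), as AOS did (0.79, SE 0.21, adjusted p = 0.00893), while against water no Rose Bengal time passed.

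AOC4 (AT1G13280), on another chromosome, moved the other way. Under Rose Bengal it had 145, 224 and 114 CPM at 1 h, 241, 158 and 170.3 CPM at 2 h and 156, 169 and 169 CPM at 3 h, against 291, 296 and 267 CPM in water. In RBH 2 h it had 215, 187 and 218 CPM. All 12 treated libraries lay below all 3 water libraries. AOC4 fell by 0.84 on the log2 scale in RB 1 h (SE 0.21, edgeR adjusted p = 0.0171), by 0.59 in RB 2 h (SE 0.21, adjusted p = 0.0403) and by 0.79 in RB 3 h (SE 0.21, adjusted p = 0.00525), each against water. In RBH 2 h the log2 difference from water was -0.46 (SE 0.21, edgeR adjusted p = 0.108), and from RB 2 h it was 0.14 (SE 0.21, adjusted p = 0.715). The RB 1 h call was lost in 4 of the 6 fits that left out a library (without RB 1 h replicate a or c, or water replicate a or b; adjusted p up to 0.129). The RB 2 h call was lost in 5 of 6, all but that without RB 2 h replicate a (adjusted p up to 0.162), and the RB 3 h call in none.

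The family as a whole was higher under RBH, with another makeup; these are given as values only. The coding sequences of the 4 genes differ little in length, from 762 to 777 bases, but MARS-seq reads lie near the 3′ end. The counts of the 4 genes were set side by side without scaling by length. How fully each 3′ end was counted was not tested. The summed AOC level was 840 ± 28.3 CPM in RBH 2 h, 411 ± 95.8 CPM in RB 2 h and 480 ± 45.2 CPM in water. AOC1 and AOC2 gave 14.5%, 17.7% and 17.6% of AOC counts in the 3 RBH libraries. They gave 2.35%, 1.05% and 1.65% in RB 2 h and 0%, 0.288% and 1.32% in water. The 95% Clopper-Pearson intervals of the RBH libraries reached down to 12.5%, and those of the other libraries reached up to 4.07%. Water replicate a held 0 such counts of 410, whose interval allows up to 0.896%. Most of the AOC transcripts in RBH 2 h were still those of AOC3 and AOC4.

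**Figure D2:**
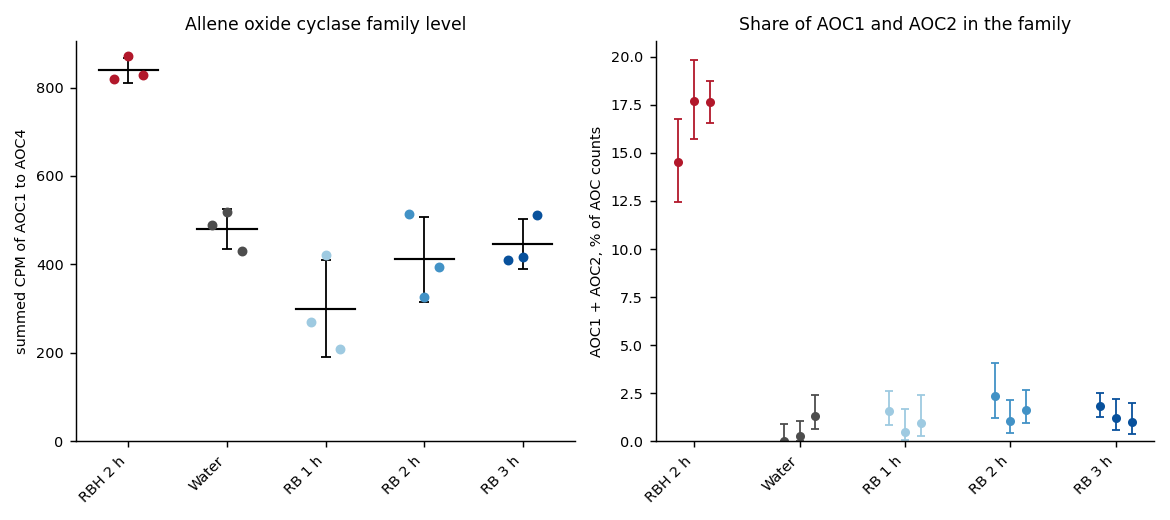
Left, summed CPM of AOC1 to AOC4 (y axis) in each library, with the mean ± SD of 3; right, AOC1 plus AOC2 as a percentage of all AOC counts, with 95% Clopper-Pearson intervals. The RBH libraries hold 14.5% to 17.7%, and no other library exceeds 2.35%.

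At the peroxisomal step, OPR3 (AT2G06050), which reduces OPDA, had 42.2, 45.2 and 50.9 CPM in RBH 2 h and 37.3, 27.8 and 54.6 CPM in RB 2 h. In RB 1 h it had 36.2, 22.7 and 40.4 CPM, in RB 3 h 40.5, 41.3 and 50.1 CPM, and in water 27.4, 38.8 and 28.5 CPM. The RBH and RB 3 h libraries lay above all water libraries by a small margin. The log2 differences from water were 0.55 in RBH 2 h (SE 0.26, edgeR adjusted p = 0.126) and 0.46 in RB 3 h (SE 0.26, adjusted p = 0.187), and between RBH 2 h and RB 2 h 0.21 (SE 0.25, adjusted p = 0.624).

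ACX1 (AT4G16760), which starts the shortening of the side chain, had 52.9, 101 and 93.4 CPM in RBH 2 h and 69.5, 112 and 157 CPM in RB 2 h. In RB 1 h it had 86.9, 63.0 and 128 CPM, in RB 3 h 145, 101 and 110.3 CPM, and in water 75.2, 88.9 and 71.8 CPM. Its replicates spread widely, and only RB 3 h stood clear of water. The log2 difference was 0.60 in RB 3 h against water (SE 0.28, edgeR adjusted p = 0.11) and -0.46 in RBH 2 h against RB 2 h (SE 0.28, adjusted p = 0.286). In RB 2 h against water it was 0.54 (SE 0.29, edgeR adjusted p = 0.186). Of the 6 fits of that comparison that left out a library, 1 called ACX1 (edgeR adjusted p = 0.0431).

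JAR1 (AT2G46370) had 10.7, 16.1 and 15.5 CPM in RBH 2 h and 12.1, 20.9 and 23.5 CPM in RB 2 h. In RB 1 h it had 27.6, 17.7 and 29.9 CPM, in RB 3 h 21.5, 19.7 and 17.9 CPM, and in water 14.3, 14.2 and 16.5 CPM. The RB 1 h and RB 3 h libraries lay above water without overlap. The log2 difference of 0.76 in RB 1 h against water did not pass (SE 0.29, edgeR adjusted p = 0.132), nor did that of -0.44 in RBH 2 h against RB 2 h (SE 0.28, adjusted p = 0.305). Without RB 1 h replicate b and RB 2 h replicate a, JAR1 was called in RB 1 h against water.

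The median log2 fold change of the 9 genes was 0.50 in RBH 2 h against RB 2 h, where that of all tested genes was -0.02, and 0.79 in RBH 2 h against water, where that of all was 0.04. Under Rose Bengal against water it was 0.08 at 1 h, 0.37 at 2 h and 0.60 at 3 h, where that of all was 0.02, 0.04 and 0.01. The 9 genes include AOC1 and AOC2, whose place among the tested genes depends on their RBH level. Under upper quartile scaling the median of all genes in RBH 2 h against RB 2 h was -0.13, and 46.3% rather than 58.5% of calls were higher. In RBH 2 h against water that scaling gave 42.6% rather than 53.4% higher. The calls of LOX4, AOC1, AOC2 and AOC3 under RBH held in both comparisons under it.

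With the summed shoot marker level as a covariate, LOX4, AOC1, AOC2 and AOC3 remained called in RBH 2 h against RB 2 h, at log2 fold changes of 1.66, 4.05, 4.35 and 1.18, and AOS was called as well (0.67, edgeR adjusted p = 0.0438). With the same covariate, AOC4 in RB 1 h against water had a log2 difference of -0.69 and was no longer called (edgeR adjusted p = 0.0958). In RB 3 h against water the log2 differences were 1.77 for LOX4, 0.41 for AOS and -0.57 for AOC4, none of them called (edgeR adjusted p = 0.0838, 0.261 and 0.113). AOC4 in RB 2 h was still called (-0.57, edgeR adjusted p = 0.0436). The summed shoot level was 206 to 267 CPM in RB 1 h and 175 to 211 CPM in RB 3 h, all below the 304 to 521 CPM of water. In those comparisons the covariate and the treatment therefore cannot be told apart, and the lost calls decide nothing between them.

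**Figure D3:**
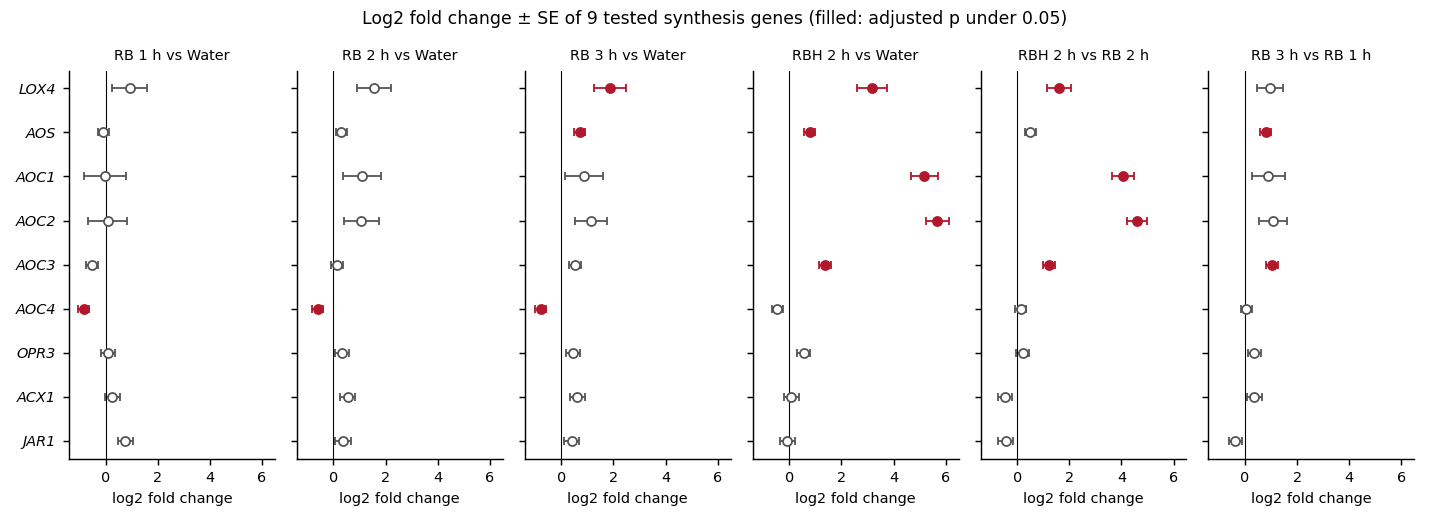
Log2 fold change (x axis, first-named over second-named group) ± SE of the 9 tested genes (rows, in pathway order) in the 6 comparisons. Filled points passed an edgeR adjusted p of 0.05; the panels with RBH 2 h hold the large values of AOC1 and AOC2, and OPR3, ACX1 and JAR1 are open throughout.

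Of 19 other genes listed for jasmonate synthesis, 13 were tested. In RBH 2 h against RB 2 h, 1 rose and 1 fell, with a median log2 fold change of -0.34; 2 called of 13 is near the 16.8% of all tested genes. KAT5, a thiolase of β-oxidation, had 17.3 ± 5.83 CPM in RBH 2 h, against 7.69 ± 3.61 CPM in RB 2 h (log2 fold change 1.31, edgeR adjusted p = 0.0125), with overlapping libraries. All its RBH libraries lay below those of water (30.1 ± 0.951 CPM), at a log2 difference of -0.74 that did not pass (edgeR adjusted p = 0.0839). ACX3, an acyl-CoA oxidase, fell to 2.21 ± 0.418 CPM in RBH 2 h, against 7.90 ± 1.95 CPM in RB 2 h (-1.85, edgeR adjusted p = 0.00959). ACX4, another acyl-CoA oxidase, had 24.7 CPM in RBH 2 h and 41.5 CPM in RB 2 h (-0.76, edgeR adjusted p = 0.0613). In RB 2 h against water, 4 rose and 1 fell, with a median of 0.51, where 12.6% of all rose and 12.2% fell. OPR2, a relative of OPR3 known for other substrates, rose to 166 ± 40.0 CPM in RB 2 h, against 59.5 ± 3.61 CPM in water (1.46, edgeR adjusted p = 5.97e-06). ACX4, ACX2 and the thiolase KAT2 rose by 1.17, 1.62 and 0.45, while KAT5 fell by 2.04. The β-oxidation genes also act on other fatty acids. Without the 2 libraries that stood apart, 2 rose and 3 fell in RBH 2 h against RB 2 h, where OPR2 rose by 0.68, and ACX2 and the desaturase FAD3 fell by 1.18 and 0.67.

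Of the enzymes that remove jasmonate, 8 of 11 were tested. Of these, 4 rose and 0 fell in RBH 2 h against RB 2 h, where 9.82% of all tested genes rose and 6.97% fell, with a median log2 fold change of 1.42. Against water 7 rose and 0 fell, where 14.4% of all rose and 12.6% fell. CYP94C1, which oxidises the isoleucine conjugate, had 19.2, 16.1 and 13.4 CPM in RBH 2 h and 2.02, 4.38 and 4.04 CPM in RB 2 h. JOX4, which hydroxylates jasmonic acid, had 32.2, 55.5 and 57.8 CPM in RBH 2 h and 12.1, 9.25 and 17.0 CPM in RB 2 h. ILL6, which cleaves the conjugate, had 14.6, 19.4 and 15 CPM in RBH 2 h and 1.01, 1.46 and 4.45 CPM in RB 2 h. None of the 3 overlapped between the groups, and they rose by 2.08, 1.92 and 2.61 on the log2 scale (edgeR adjusted p = 0.00106, 0.00196 and 0.00264). ILL6 lay below the 5.66 CPM of the filter on low counts in every water, RB 1 h and RB 2 h library. In RB 3 h it ranged from 1.01 to 5.75 CPM, so it passed that filter only with its RBH libraries. The RBH calls of ILL6 thus partly follow from the filter, and the counts of 4 and 7 higher include it. In RB 2 h against water, 2 rose and 1 fell, 3 of 8 called, where 24.8% of all were called. JOX4 rose by 3.04 and ST2A, a hydroxyjasmonate sulfotransferase, by 1.43, while CYP94B3, a hydroxylase of the conjugate, fell by 2.07, with 14.1, 14.6 and 25.1 CPM in RB 2 h and an uneven 53.7, 159 and 21.7 CPM in water. CYP94B1, another hydroxylase, and IAR3, an amidohydrolase, had log2 differences of 0.97 and 0.68 that did not pass. Without the 2 libraries that stood apart, 3 of the list rose and 0 fell: IAR3 was called (0.91, edgeR adjusted p = 0.0394), and CYP94B3 was not, at a log2 difference of -1.96 (adjusted p = 0.11).

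Of the JAZ repressors, 6 of 13 were in the table and tested, and 2 rose and 0 fell in RBH 2 h against RB 2 h, where 9.82% of all tested genes rose and 6.97% fell. JAZ5 had 48.3, 49.7 and 53.7 CPM in RBH 2 h and 14.1, 6.33 and 14.6 CPM in RB 2 h (log2 fold change 2.14, SE 0.40, edgeR adjusted p = 0.000692). JAZ2 had 34.5, 38.1 and 47.2 CPM in RBH 2 h and 20.2, 8.76 and 15.8 CPM in RB 2 h (1.5, SE 0.35, adjusted p = 0.00438). Neither gene overlapped between these groups. JAZ6 had 6.30 CPM in RBH 2 h and 3.55 CPM in RB 2 h on average (0.76, edgeR adjusted p = 0.557). In RB 2 h against water none of the 6 passed with edgeR, and none had an unadjusted p under 0.05: JAZ1, JAZ3, JAZ12, JAZ5 and JAZ6 had log2 differences of 0.97, -0.52, -0.15, 0.24 and 0.36.

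Among the receptor and its factors, 5 of 6 were tested. MYC2, the best-known transcription factor of the pathway, fell in RBH 2 h against RB 2 h. It had 13.8, 26.5 and 21.5 CPM in RBH 2 h, against 23.2, 65.7 and 63.9 CPM in RB 2 h (log2 fold change -1.33, SE 0.37, edgeR adjusted p = 0.0178), and RB 2 h replicate a lay within the RBH range. Without the 2 libraries that stood apart it fell by 1.62 (edgeR adjusted p = 0.000235), and NINJA, an adaptor of the repressors, rose by 0.50 (adjusted p = 0.0327). With all libraries NINJA had 0.31 and COI1, the receptor, -0.59, and neither passed. In RB 2 h against water, MYC2 rose by 1.43 and its relative MYC3 by 1.57, and NINJA fell by 0.92 (edgeR adjusted p = 0.0127, 0.00265 and 0.000416), while TPL, a corepressor, and COI1 had -0.31 and 0.23. Of the response genes, VSP1, a storage protein, was the only one of 6 tested, and its log2 differences were 0.24 in RBH 2 h against RB 2 h and -0.0025 in RB 2 h against water.

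**Figure D4:**
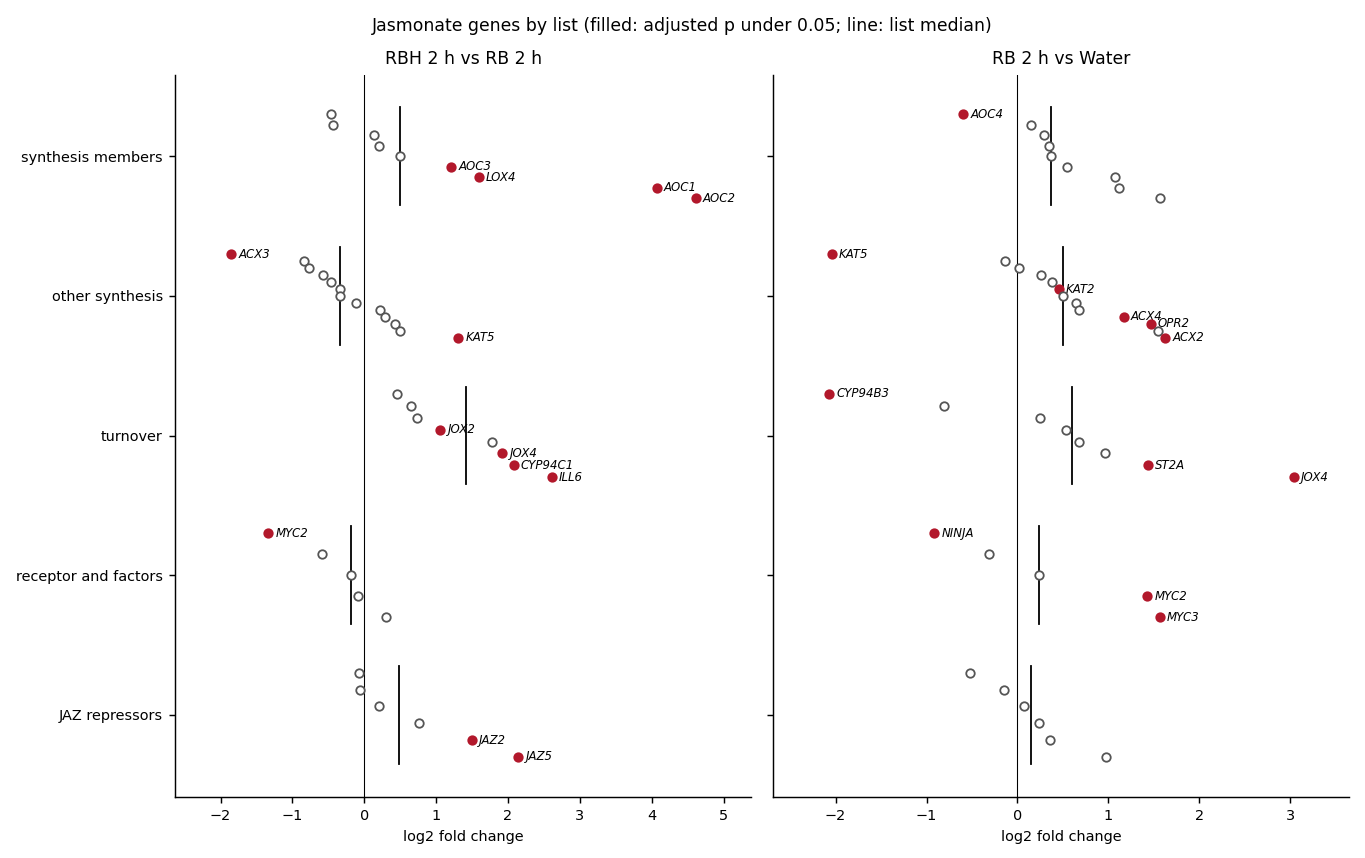
Log2 fold change (x axis) of the tested genes by list (rows; points spread within a row for legibility), in RBH 2 h against RB 2 h (left) and RB 2 h against water (right). Filled points passed an edgeR adjusted p of 0.05 and are named, and short lines are list medians, 0.50 for the synthesis members and 1.42 for turnover on the left.

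The genes whose pattern over the 15 libraries was most like that of AOC2 were ERF14, PMAT2 and LCR67, at root-mean-square differences of 0.847, 0.849 and 0.855 in centred log2 CPM. ERF14, an ethylene-response factor, had 31.7 ± 5.34 CPM in RBH 2 h, 0.702 ± 0.830 CPM in RB 2 h and 0.629 ± 0.579 CPM in water. LCR67 belongs to the cysteine-rich defensin-like proteins. LCR67 (0.726), APX2 (0.754), an ascorbate peroxidase, and ERF14 (0.759) were most like AOC1. HB-2, a homeobox factor, GSTU13, a glutathione transferase, and DHS1, the first enzyme of aromatic amino acid synthesis, were most like AOC3, at 0.264, 0.277 and 0.292. All these genes were picked by likeness in these same libraries, so their levels are no added support. The means of ERF14, PMAT2, LCR67 and APX2 in water, RB 2 h and RB 3 h lay below the 5.66 CPM of the filter on low counts. Their place among the tested genes may thus depend on their RBH level.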

How the data were processed

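Root RNA of 15 libraries was measured by MARS-seq. The submitters' processing notes list STAR 2.4.2a, HTSeq, cutadapt, bcl2fastq and DESeq2. The sources used here do not state genome build, annotation, strand or the treatment of molecular identifiers, and intervals on counts cover counting error only. Per the file headers, the deposited table has raw read counts per gene and library. It also holds log2 fold changes and adjusted p-values by the authors, per the file headers. A further 30 columns of per-library values were not used.

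Analysis used edgeR 4.0.16 (R 4.3.3): filterByExpr by group, TMM scaling, 1 robust quasi-likelihood fit of all 15 libraries with a coefficient per group, two-sided F tests and Benjamini-Hochberg adjustment over 9891 genes. SE was derived as log2 fold change divided by the root of F, without sign. CPM use TMM-scaled totals. The pipeline was tested on simulated data. Alternatives included DESeq2 1.42.0, other scalings and filters, the replicate letter as a block, a shoot marker covariate, and leaving out libraries, among them RB 1 h replicate b and RB 2 h replicate a, which stand apart from their groups. Replicate pairs differed by a chi-square of 3 to 11.1 per degree of freedom, more than counting noise. Windows and motifs were read from TAIR10.1 with Python 3.11.15 and coding sequences aligned with Biopython 1.88.

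The members and lists were chosen with earlier results of these data known. All 10 loci are named in every comparison they matter to. From each other list, the rule names up to 5 genes with the smallest p in RB 2 h against water and up to 3 in RBH 2 h against RB 2 h. For the 3 members with the smallest p it names the 3 tested genes with a symbol that have the smallest root-mean-square difference of centred log2 CPM (prior count 2). The members themselves were left out of that search. Protein sequences were not used here.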

Additional observations from a re-analysis of the deposited data

How the results depend on the processing

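Scaling by median-of-ratios size factors and the DESeq2 test moved no call of the 9 tested genes. The number called in RB 1 h against water (1) was 3 without RB 1 h replicate b and RB 2 h replicate a, where AOC3 and JAR1 joined AOC4, and 0 with the shoot covariate. In RB 2 h against water (1), it was 2 without those libraries, 0 with only the 2 groups fitted and 0 with the replicate letter as a block (AOC4, edgeR adjusted p = 0.0548). In RB 3 h against water (3), it was 5 without those libraries, 5 with only the 2 groups fitted and 0 with the covariate. Same-letter libraries had deviations correlated at -0.299 to 0.271, and 3 of 15 correlated best with their own letter. No pairing by letter was thus seen, although 3 libraries a group are too few to settle it. The block changed no other call. The cause of these moves was not tested. For the other lists, the fit without those libraries was added after the data were seen.

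Leaving out 1 library gave 0 to 2 calls in RB 1 h and in RB 2 h against water, 1 to 3 in RB 3 h against water, 4 to 5 in RBH 2 h against water, 3 to 4 in RBH 2 h against RB 2 h and 1 to 2 in RB 3 h against RB 1 h. Without RB 1 h replicate a or RB 3 h replicate c, AOS was lost in the last (edgeR adjusted p = 0.0837 and 0.0571). LOX4 in RB 3 h was lost without water replicate a or c or RB 3 h replicate c (adjusted p = 0.0718, 0.163 and 0.0727). AOC1, AOC2 and AOC3 in RBH 2 h against RB 2 h were called in all 6.

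The log2 values whose sign turned were uncalled before and after the turn, and at most 0.25 in size before it (ACX1 in RB 1 h against water). AOC1 in RB 1 h was 0.054 under upper quartile scaling, 0.014 with no filter, 0.030 with a stricter one, 0.042 without the 2 libraries and 0.019 with the covariate. AOC3 in RB 2 h was -0.0096 without the 2 libraries, and ACX1 in RBH 2 h against water -0.047 under upper quartile scaling. Leaving out 1 library gave, in RB 1 h against water, -0.38 to 0.090 for AOS, -0.84 to 4.49 for AOC1 (the highest without water replicate c, which leaves water at 0, so that it depends on the prior count), -0.40 to 0.98 for AOC2, -0.045 to 0.30 for OPR3 and -0.042 to 0.47 for ACX1. It gave -0.0082 to 0.31 for AOC3 in RB 2 h, -0.080 to 0.31 for ACX1 and -0.18 to 0.070 for JAR1 in RBH 2 h against water, -0.011 to 0.55 for OPR3 in RBH 2 h against RB 2 h, and -0.15 to 0.33 for AOC4 in RB 3 h against RB 1 h. At 1 to 9 counts in water, LOX3, LOX4, AOC1 and AOC2 have folds that depth limits.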

Other observations

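In the authors' deposited table the log2 fold change runs as RB 2 h over RBH 2 h, so a negative value is higher in RBH 2 h. In the authors' deposited table it was -4.63 for AOC2, -4.11 for AOC1, -1.22 for AOC3 and -1.58 for LOX4, with adjusted p of 1.18e-21, 1.97e-13, 1.61e-05 and 0.0176. LOX3 stood at -2.86 with an adjusted p of 0.058 in the authors' deposited table.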
